A study of Mus musculus with 13 samples.

Results

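Necroptosis is a lytic form of cell death, and the 6 genes described here encode its core and the branch point at which it is decided, together with ZBP1, the receptor that links Z-form nucleic acid to it. The members are Zbp1, Ripk1, Ripk3, Mlkl, Casp8 and Fadd, taken by symbol from a count table of 54532 genes, in which each symbol had 1 row. They were followed through 12 libraries of the mouse cutaneous melanoma line Yumm1.7, in which ADAR1 was inhibited with ADAR1i-124, DNA methylation was inhibited with 5-Aza-CdR, or both. In these libraries 2 members stood apart from the rest. Zbp1 RNA was 36.8-fold lower with ADAR1i-124 and 4.44-fold higher with 5-Aza-CdR than with DMSO in total RNA, and Ripk3 RNA was at 0 to 3 counts in every library without 5-Aza-CdR and at 22 to 55 counts in every library with it. Mlkl, Ripk1, Casp8 and Fadd spanned 2.05-fold to 2.88-fold between their lowest and highest library.

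As background, ZBP1 binds left-handed Z-RNA or Z-DNA through its Zα domains and recruits RIPK3 through RHIM motifs, which RIPK1 also carries. RIPK3 phosphorylates the pseudokinase MLKL, which then oligomerizes and permeabilizes the plasma membrane. FADD and caspase-8 form the opposing arm, since caspase-8 cleaves RIPK1 and RIPK3 and turns the same complexes toward apoptosis. Zbp1 is an interferon-stimulated gene (ISG), Mlkl is inducible by interferon in many cells, and Ripk3 is silenced by promoter methylation in many cancer cell lines. ADAR1 competes for Z-RNA through its own Zα domain and edits adenosine to inosine in double-stranded RNA.

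Cells received DMSO, ADAR1i-124 at 10 μM for 12 h, 5-Aza-CdR at 1 μM for 72 h, or 5-Aza-CdR followed by ADAR1i-124, called the combination. Of the 12 libraries, 3 held total RNA depleted of ribosomal RNA, from cells given DMSO, ADAR1i-124 or 5-Aza-CdR. In 4 libraries the RNA had been digested with RNase I and precipitated with J2, an antibody to double-stranded RNA, and in 4 with Z22, an antibody to Z-form nucleic acid, each set with the 4 treatments. The last library was precipitated with IgG from cells whose treatment is not given in the sources used here. All are labelled wild type and come from the same line. Each condition had 1 library, so no difference below has a replicate check, and none was tested.

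Total counts were 17015425, 17617961 and 34571822 for total RNA with DMSO, ADAR1i-124 and 5-Aza-CdR, and ran from 8167960 to 15324595 in the precipitated libraries. Levels are given as CPM, the number of counts per 1000000 counted in a library, and 3 counts, the smallest number taken as detected, corresponded to 0.0868 to 0.367 CPM. Intervals are 95% Wilson intervals of counting error only, as no molecular identifiers were used and reads from 1 molecule are not told apart. A thirteenth library, total RNA of the combination, was left out because its 1245894 counts lay on genes of the other strand. It held 1 count of Fadd and 31 of the antisense gene Faddos, and 5 counts of Mlkl against 58 of the pseudogene Gm45712 on the opposite strand, which had 0 counts in the other 12. The Z22 library of DMSO cells also stood apart. In it 34.9% of counts came from Gm42418, a gene that overlaps ribosomal RNA sequence, against 10.6% to 18.9% in the other precipitated libraries, and the comparisons with it had medians over all genes of 0.81 for ADAR1i-124, 1.06 for 5-Aza-CdR and 0.82 for the combination on the log2 scale. Of 7 melanocyte markers, Mitf was the one above 1 CPM, with 22.2 CPM in total RNA of DMSO cells, while the pigment genes Tyr and Tyrp1 were at 0 in all 12 libraries and Dct, Mlana and Sox10 had 0 to 2 counts. Pmel did not exceed 0.625 CPM. The gene of the inhibited enzyme, Adar, was at 233 CPM with DMSO, 58.9 with ADAR1i-124 and 198 with 5-Aza-CdR in total RNA.

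On the mouse build GRCm38, Zbp1 (ENSMUSG00000027514) lies at chr2:173206612-173218923 on the minus strand and Ripk1 (ENSMUSG00000021408) at chr13:34002363-34037147 on the plus strand. Ripk3 (ENSMUSG00000022221) lies at chr14:55784995-55788865 and Mlkl (ENSMUSG00000012519) at chr8:111311797-111338177, both on the minus strand. Casp8 (ENSMUSG00000026029) lies at chr1:58795374-58847503 on the plus strand and Fadd (ENSMUSG00000031077) at chr7:144577318-144582463 on the minus strand. Some of these genes share bases with others. Serpinb6a overlaps Ripk1 from the opposite strand, with 799 to 8953 counts, and Gm37760 lies on the strand of Casp8 with 12 to 310 counts, so reads over the shared bases may belong to either gene. Faddos, antisense to Fadd, had 0 to 3 counts in the 12 libraries.

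As 5-Aza-CdR inhibits the enzymes that methylate CpG sites, the CpG sites of the promoters are shown for Ripk3, which had its counts in the 5-Aza-CdR libraries, beside Mlkl, its substrate and the highest member, and Fadd, which was lower with 5-Aza-CdR in total RNA. Sequences are from RefSeq on GRCm38.p6, run from 250 bases before to 50 bases after a transcription start and are written 5′ to 3′ on the gene's strand, with CG dinucleotides in capitals. RefSeq promoters matched 5 of the 6 members, all but Zbp1.
Ripk3, chr14:55788808-55789107, minus strand: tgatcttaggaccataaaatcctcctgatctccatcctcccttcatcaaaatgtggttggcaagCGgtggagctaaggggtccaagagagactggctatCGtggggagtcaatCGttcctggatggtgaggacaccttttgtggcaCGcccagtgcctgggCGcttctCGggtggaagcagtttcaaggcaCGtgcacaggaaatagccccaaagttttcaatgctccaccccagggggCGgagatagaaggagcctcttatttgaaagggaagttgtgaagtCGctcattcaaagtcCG
Mlkl, chr8:111338156-111338455, minus strand: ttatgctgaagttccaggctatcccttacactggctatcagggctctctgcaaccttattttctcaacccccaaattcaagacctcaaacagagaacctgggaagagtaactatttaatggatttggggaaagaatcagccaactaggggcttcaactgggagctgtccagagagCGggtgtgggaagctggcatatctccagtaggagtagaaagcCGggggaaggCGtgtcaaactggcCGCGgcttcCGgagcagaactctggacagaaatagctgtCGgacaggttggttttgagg
Fadd, chr7:144582392-144582691, minus strand: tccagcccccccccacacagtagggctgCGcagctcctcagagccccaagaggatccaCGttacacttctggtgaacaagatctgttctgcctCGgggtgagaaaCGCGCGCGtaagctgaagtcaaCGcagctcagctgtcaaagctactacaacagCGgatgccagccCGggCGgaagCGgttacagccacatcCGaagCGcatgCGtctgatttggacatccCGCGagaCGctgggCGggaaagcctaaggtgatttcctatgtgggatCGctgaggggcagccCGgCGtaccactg

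The Ripk3 promoter held 10 CpG sites, and 43.4% of 32817 promoters held at least as many. Mlkl had 7 sites, the median of all promoters, Casp8 had 5, and Fadd had 22, a number reached by 23.1% of promoters. The 2 Ripk1 promoters had 22 and 36 sites. The same windows were searched on both strands for GAAANNGAA, letters shared by interferon-stimulated response elements, which 8.55% of promoters hold, for TTCNNNGAA, as bound by STAT dimers, which 8.29% hold, and for GGGNNTTCC, as bound by NF-κB, which 5.82% hold. Ripk3 had 1 match to the first, at bases 265 to 273 of the window, overlapping no other match. The second Ripk1 promoter had 1 match to the first and 2 to the second motif, of which 1 overlapped the first motif's match. Mlkl, Casp8, Fadd and the first Ripk1 promoter had no match to any of the 3 motifs. Methylation was not measured here.

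Zbp1, the Z-RNA receptor, varied more than any other member that was detected in all 12 libraries, 191-fold between the lowest and the highest. In total RNA it had 427 counts with DMSO, 12 with ADAR1i-124 and 3849 with 5-Aza-CdR, or 25.1, 0.681 and 111 CPM. In J2-precipitated RNA it had 45.2, 1.60, 130 and 118 CPM in the order DMSO, ADAR1i-124, 5-Aza-CdR, combination, and in Z22-precipitated RNA 19.7, 4.98, 38.8 and 89.6 CPM. The ADAR1i-124 library was the lowest and a 5-Aza-CdR or combination library the highest in each of the 3 materials. The IgG library held 9.27 CPM, above all 3 ADAR1i-124 libraries. The 5-Aza-CdR libraries did not clear all others, since Zbp1 in the Z22 library of 5-Aza-CdR cells lay below the J2 library of DMSO cells.

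**Figure D1:**
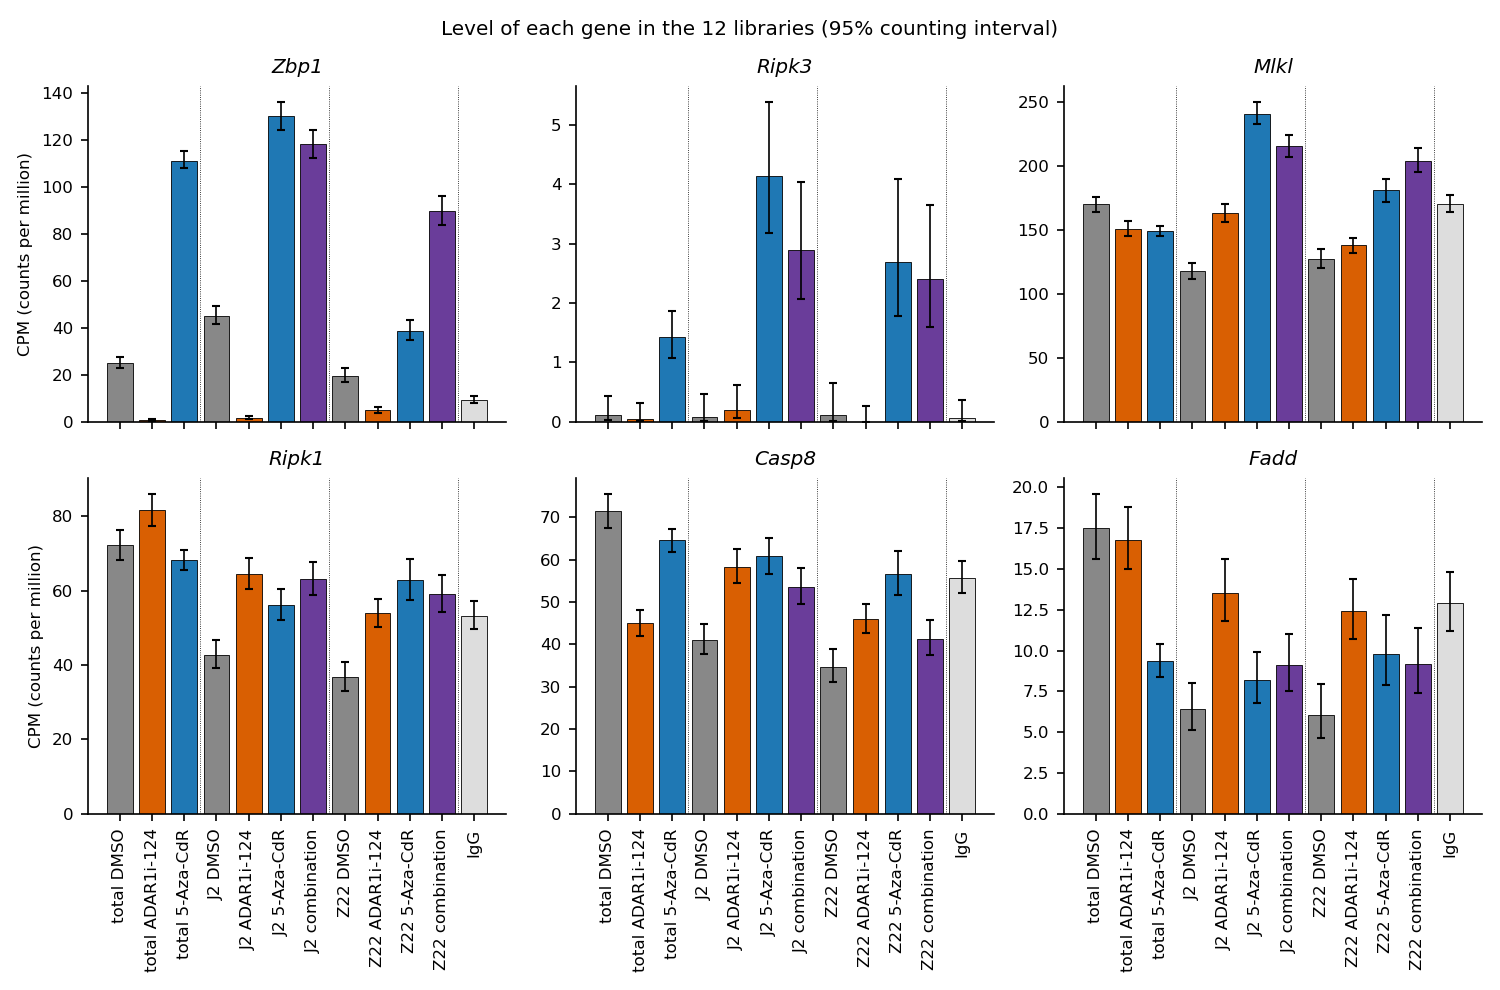
CPM of the 6 genes in the 12 libraries, 1 panel per gene with its own vertical axis from 0, grouped into total RNA, J2, Z22 and IgG, with bars coloured by treatment and error bars giving 95% counting intervals of 1 library each. Zbp1 is lowest in the ADAR1i-124 libraries, from 0.681 to 4.98 CPM, and Ripk3 stands at 1.42 to 4.14 CPM in the 5-Aza-CdR and combination libraries and at 0.208 CPM or less elsewhere.

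With ADAR1i-124, Zbp1 was 36.8-fold lower than with DMSO in total RNA (interval 20.9 to 64.9), 28.3-fold lower in J2-precipitated RNA (18.7 to 42.8) and 3.96-fold lower in Z22-precipitated RNA (3.01 to 5.20). Counted from the lowest log2 difference, Zbp1 ranked 47 of 13693 genes in total RNA and 6 of 13522 in J2-precipitated RNA. In bulk RNA a lower level in every cell and a low level in part of the cells cannot be told apart. Zbp1 was the sole member at least 2-fold lower in all 3 materials, a pattern that 131 of 13465 genes showed, or 0.973%. Ripk3 could not be judged, because its mean in these libraries lay under the minimum of 1 CPM. In the Z22 comparison the log2 difference of Zbp1, after adding 0.5 CPM, was -1.88, and relative to the median of all genes it was -2.69.

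With 5-Aza-CdR, Zbp1 was 4.44-fold higher than with DMSO in total RNA (4.01 to 4.90) and 2.87-fold higher in J2-precipitated RNA (2.61 to 3.16). Its 1.97-fold higher level in Z22-precipitated RNA (1.64 to 2.37) did not exceed the shift of all genes, since its log2 difference of 0.96 lay 0.10 below their median, and the sign turned to -0.09 with size factors in place of library totals. The 3 comparisons use separate DMSO libraries, while ADAR1i-124 and 5-Aza-CdR share the DMSO library of each material.

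The combination allowed Zbp1 to be compared with either compound alone. In J2-precipitated RNA it was 0.906 times the level with 5-Aza-CdR alone (0.844 to 0.972) and 73.7 times the level with ADAR1i-124 alone (49.0 to 111). In Z22-precipitated RNA it was 2.31 times the level with 5-Aza-CdR alone (2.03 to 2.63), which placed Zbp1 at rank 215 of 14365 genes from the highest, and 18.0 times the level with ADAR1i-124 alone (14.2 to 22.9). Among cells given 5-Aza-CdR, the addition of ADAR1i-124 thus went with a level of Zbp1 slightly lower in J2 and higher in Z22. Against DMSO the combination was 2.60-fold higher in J2 (2.36 to 2.87) and 4.55-fold higher in Z22 (3.86 to 5.36). The Z22 log2 difference of 2.16 stood beside a median of 0.82 for all genes, and it was 1.45 with TMM factors and 1.31 with size factors.

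Ripk3, the kinase that phosphorylates MLKL, was close to undetected unless the cells had received 5-Aza-CdR. In total RNA it had 2 counts with DMSO, 1 with ADAR1i-124 and 49 with 5-Aza-CdR. In the order used above, J2-precipitated RNA held 1, 3, 55 and 34 counts, and Z22-precipitated RNA held 1, 0, 22 and 22. All 5 libraries with 5-Aza-CdR lay above all 6 without it, at 1.42 to 4.14 CPM against 0 to 0.208 CPM, and the IgG library had 1 count. Summed over libraries this was 182 counts of 76951871 against 8 of 84603987.

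Of the 6 members, Ripk3 alone had every 5-Aza-CdR library above every other, which held for 735 of 14071 genes, or 5.22%, and it passed the minimum of 1 CPM through its high libraries. The ratio to DMSO was 12.1 in total RNA (3.23 to 45.0) and 50.4 in J2-precipitated RNA (8.78 to 289). It was 23.5 in Z22-precipitated RNA (4.02 to 137), and for the combination 35.2 in J2 (6.09 to 204) and 21.0 in Z22 (3.59 to 123). These ratios rest on 1 or 2 counts in the DMSO libraries, so their size is known only within the wide intervals. The ratio of the combination to 5-Aza-CdR alone was 0.699 in J2 (0.457 to 1.07) and 0.893 in Z22 (0.499 to 1.60), and neither was distinguishable from 1 at this depth.

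Leukocytes express Ripk3, and 7 leukocyte markers were read in the same libraries. Of these, 5 reached 3 counts in the total RNA library of 5-Aza-CdR cells, where Lyz2 had 84 counts, Ptprc 42, Itgam 8, Tyrobp 7 and Adgre1 6, and their sum with the other 2 was 4.28 CPM against 0.235 with DMSO. Cd3e was at 0 there. In the other 4 libraries with 5-Aza-CdR none of the 7 markers reached 3 counts, Tyrobp, Adgre1 and Cd3e were at 0, and the summed level was 0.0752 to 0.490 CPM. Ripk3 was at 2.41 to 4.14 CPM in them. The part of leukocyte RNA in the Ripk3 counts, or in the Zbp1 level of the total RNA library of 5-Aza-CdR cells, was not tested.

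Mlkl, which forms the membrane lesion, was the highest member on the scale of CPM per kilobase of exon. In total RNA it had 170 CPM with DMSO, 151 with ADAR1i-124 and 149 with 5-Aza-CdR. In the same order of treatments, J2-precipitated RNA held 118, 163, 241 and 216 CPM, and Z22-precipitated RNA 127, 138, 181 and 204. Mlkl was thus highest in DMSO cells in total RNA and lowest in DMSO cells after precipitation, for Z22 on library totals only. In total RNA it was 0.886 times the DMSO level with ADAR1i-124 (0.841 to 0.934) and 0.875 times with 5-Aza-CdR (0.836 to 0.915). In J2-precipitated RNA it was 2.05-fold higher with 5-Aza-CdR (1.93 to 2.18) and 1.83-fold higher with the combination (1.72 to 1.96), where the median of all genes was 0.06 and 0.11 on the log2 scale and Mlkl was at 1.03 and 0.87. In Z22-precipitated RNA its log2 differences from DMSO of 0.12, 0.51 and 0.69 lay under the medians of all genes and became negative with TMM factors or size factors.

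Ripk1, the kinase and scaffold shared by the survival and death complexes, had 72.2, 81.6 and 68.2 CPM in total RNA with DMSO, ADAR1i-124 and 5-Aza-CdR. It was 1.13-fold higher with ADAR1i-124 (1.05 to 1.22), and its ratio of 0.945 with 5-Aza-CdR (0.882 to 1.01) was not distinguishable from 1. After precipitation the DMSO libraries were the lowest of all 12, at 42.8 CPM for J2 and 36.7 for Z22, though with TMM factors or size factors the Z22 libraries of all 3 treatments lay below the Z22 library of DMSO cells. The other precipitated libraries held 53.3 to 64.5 CPM. In J2-precipitated RNA Ripk1 was 1.51-fold higher with ADAR1i-124 (1.36 to 1.68), 1.31-fold with 5-Aza-CdR (1.17 to 1.47) and 1.47-fold with the combination (1.32 to 1.65).

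Casp8, the protease that restrains necroptosis, had 71.4 CPM in total RNA with DMSO, 45.0 with ADAR1i-124 and 64.6 with 5-Aza-CdR. It was 1.59-fold lower with ADAR1i-124 (1.45 to 1.74) and 1.11-fold lower with 5-Aza-CdR (1.03 to 1.19). J2-precipitated RNA held 41.1, 58.3, 60.8 and 53.5 CPM in the order given above, and Z22-precipitated RNA 34.7, 46.0, 56.6 and 41.3. Again the DMSO library was the lowest of each precipitation and the highest of total RNA, but with TMM factors or size factors the 3 treated Z22 libraries lay below the DMSO one. With ADAR1i-124 Casp8 was 1.42-fold higher in J2-precipitated RNA (1.27 to 1.58), opposite in sign to total RNA.

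Fadd, the adaptor that brings caspase-8 to the complex, had the lowest level per kilobase of exon in DMSO cells among the members other than Ripk3. It had 17.5, 16.8 and 9.37 CPM in total RNA, so that 5-Aza-CdR cells held 1.87-fold less than DMSO cells (1.60 to 2.19) and ADAR1i-124 cells did not differ beyond counting error (ratio 0.959, 0.817 to 1.13). J2-precipitated RNA held 6.40, 13.5, 8.20 and 9.09 CPM and Z22-precipitated RNA 6.07, 12.4, 9.79 and 9.18. In both precipitations the ADAR1i-124 library was the highest, 2.12-fold above DMSO in J2 (1.63 to 2.75) and 2.04-fold in Z22 (1.51 to 2.77), and the log2 difference of 0.97 in Z22 exceeded the median of all genes by 0.16. With TMM factors that difference was 0.34 and with size factors 0.16. The smaller Z22 differences of Fadd with 5-Aza-CdR and the combination became negative with TMM factors or size factors.

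Per kilobase of exon, the order of the members in total RNA of DMSO cells was Mlkl with 73.9 CPM per kb, Casp8 with 24.7, Ripk1 with 8.65, Zbp1 with 7.11, Fadd with 4.49 and Ripk3 with 0.0513. With 5-Aza-CdR Zbp1 moved to the second place with 31.5 CPM per kb, between Mlkl at 64.6 and Casp8 at 22.3, and Ripk3 stood at 0.618. With ADAR1i-124 Zbp1 had 0.193 CPM per kb, below Fadd at 4.30. Among the lower-placed members Ripk3 remained the lowest in all 3 libraries, with 0.0248 CPM per kb in ADAR1i-124 cells.

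The members that differed from DMSO by 2-fold or more were counted beside all genes. Ripk3 was not counted, since it was under the minimum of 1 CPM in some comparisons and passed it in the others only through its high library. In total RNA with ADAR1i-124, the other 5 members passed the minimum, 1 was at least 2-fold lower (Zbp1) and none higher, where 8.70% of 13693 genes were lower and 7.71% higher. With 5-Aza-CdR, 1 of 5 was higher (Zbp1) and none lower, where 17.0% of 14391 genes were higher and 8.96% lower. In J2-precipitated RNA with ADAR1i-124, 1 of 5 was higher (Fadd) and 1 lower (Zbp1), against 7.37% and 10.8% of all genes. Fadd was close to the line, at a log2 difference of 1.02, and fell short of it over protein-coding totals (0.94), without the 20 genes of highest share (0.96) and with a pseudocount of 2 CPM (0.89). With 5-Aza-CdR in J2, 2 of 5 were at least 2-fold away from DMSO, both of them higher (Zbp1 and Mlkl), where 8.61% of all genes were higher and 14.6% were higher or lower, and with the combination 1 of 5 was higher (Zbp1) and none lower, against 8.21% and 3.88%. With 5-Aza-CdR Mlkl was past the line on library totals only, at 1.03, since the 4 other scalings gave 0.97 to 0.99 and left 1 of 5.

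In Z22-precipitated RNA the backgrounds of higher genes were far larger. With ADAR1i-124, 1 of 5 members was lower (Zbp1) and none higher, against 5.13% lower and 42.9% higher, on the scale with 0.5 CPM added, where Fadd was at 0.97. With 5-Aza-CdR, none of the 5 was higher, against 52.1%, and none lower, against 4.10%. With the combination 1 of 5 was higher (Zbp1), against 43.4%, and none lower, against 5.03%. The median log2 difference of the 5 members other than Ripk3 was 0.40, 0.70 and 0.68 for the 3 treatments, beside the 0.81, 1.06 and 0.82 of all genes. In the other comparisons it was -0.17 and -0.14 in total RNA, and 0.50, 0.56 and 0.55 in J2-precipitated RNA, beside -0.09 and 0.06, and 0.00, 0.06 and 0.11 for all genes.

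**Figure D2:**
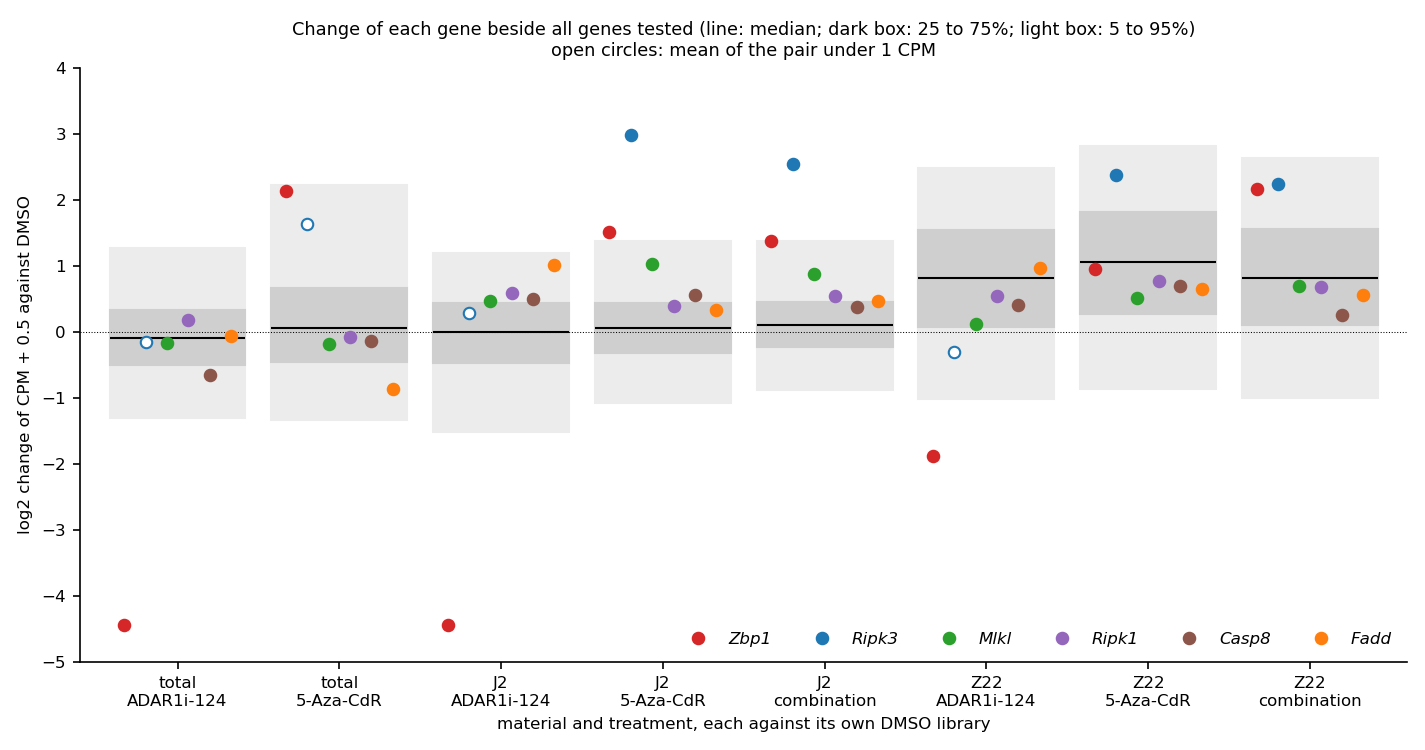
Log2 difference from the DMSO library of the same material, after adding 0.5 CPM, for the 6 genes in 8 comparisons, each point from 1 pair of libraries, over boxes of all genes tested (line, median; dark box, 25 to 75%; light box, 5 to 95%) and with open circles where the pair's mean was under 1 CPM. Zbp1 lies below the light box in all 3 ADAR1i-124 comparisons, at -4.44, -4.45 and -1.88, and the boxes of the Z22 comparisons are centred at 0.81 to 1.06.

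The precipitated libraries were also set against the IgG library, the study's reference for enrichment. The treatment of the IgG cells is not given here, so these ratios can hold differences in RNA level between cells as well as antibody retention. Zbp1 lay above IgG in 6 of the 8 libraries, with log2 ratios in J2 of 2.23 with DMSO, 3.74 with 5-Aza-CdR and 3.60 with the combination, where all genes had medians of 0.00, 0.05 and 0.13, and of -2.22 with ADAR1i-124. In Z22 the ratios were 1.05, 2.01 and 3.21 for the same treatments and -0.83 with ADAR1i-124. The 1 IgG library was common to all treatments, so the order of these ratios is that of the levels given above. Against total RNA of the same treatment the order differed. The J2 libraries held 0.84, 0.83 and 0.22 more Zbp1 on the log2 scale with DMSO, ADAR1i-124 and 5-Aza-CdR, where all genes had medians of -0.36, -0.30 and -0.37. The Z22 libraries differed by -0.34, 2.21 and -1.51 from the matched total RNA, with medians of all genes of -1.18, -0.30 and -0.20, and the value of 2.21 rests on 12 counts in total RNA and 73 in Z22. Relative to total RNA, Zbp1 was thus below the median of all genes in the Z22 library of 5-Aza-CdR cells and above it in the other 5 libraries.

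Ripk3 exceeded total RNA in the J2 library of 5-Aza-CdR cells, with 55 counts against 49 in a total RNA library of higher depth, a log2 ratio of 1.27 (interval without added CPM, 0.99 to 2.10), and by 0.74 in Z22 (0.21 to 1.64). Mlkl exceeded total RNA in the same pair by 0.69 in J2 (0.63 to 0.76) and 0.28 in Z22 (0.20 to 0.37). The total RNA library of this pair is the one with leukocyte markers above 3 counts, and its part in these ratios was not tested.

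**Figure D3:**
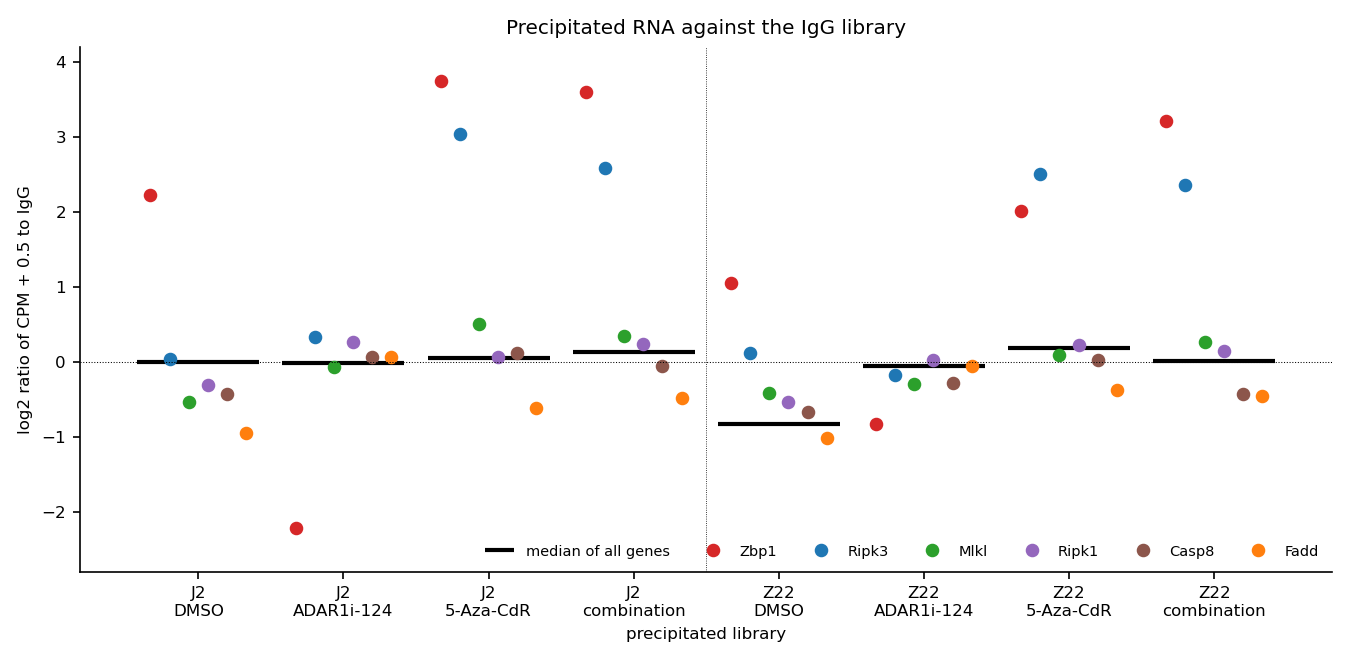
Log2 ratio of each precipitated library to the IgG library, after adding 0.5 CPM, for the 6 genes, with a black line at the median of all genes tested in that library. Zbp1 lies above the line in 6 libraries and below it in both ADAR1i-124 libraries, and the Ripk3 points rest on 1 count in the IgG library.

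Genes on either side of the necroptosis core were read from lists of 5 neighbouring pathways. Of 23 tested genes that feed into the complex from TNF receptors and TLR3, 1 was at least 2-fold higher and 3 lower with ADAR1i-124 in total RNA. Over all genes, 7.71% were higher and 8.70% lower. The median log2 difference of the list was -0.03 beside -0.09 for all genes. The death ligand Tnfsf10 (57 counts with DMSO, 1 with ADAR1i-124) and the double-stranded RNA receptor Tlr3 (52.8 and 7.21 CPM) were the furthest below DMSO, and the ubiquitin editor Tnfaip3 was higher (8.70 and 32.6 CPM). With DMSO and ADAR1i-124, Tlr3 was at 17.6 and 12.3 CPM in J2. In Z22 it was at 4.93 and 12.4 CPM, a log2 difference of 1.25 beside 0.81 for all genes. Tnfaip3 was at 5.99 and 9.59 CPM in J2, within 2-fold. In total RNA with 5-Aza-CdR, 3 of 23 were higher and none lower, where 17.0% of all genes were higher and 8.96% lower. These 3 were the death receptor Fas (2.23 and 20.1 CPM), Tnfaip3 (39.2 CPM) and, at the line itself, the linear ubiquitin ligase Rnf31 (29.9 and 60.3 CPM). They were read in the library with leukocyte markers at 4.28 CPM against 0.235, and the part of these markers was not tested. In J2-precipitated RNA Fas was not higher, at 6.16 CPM with DMSO, 4.96 with 5-Aza-CdR and 4.42 with the combination, and neither was Rnf31, at 32.7 CPM with DMSO and 27.8 with 5-Aza-CdR. Of 24 genes tested there with 5-Aza-CdR, 3 were higher and none lower, against 8.61% of all genes higher. Among the 3 were Tnfaip3 (5.99 and 16.8 CPM) and, at the line itself, Tlr3 (17.6 and 35.6 CPM).

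The lists downstream of the complex held few genes past the line. The 14 caspase-8 partners and apoptosis effectors had a median log2 difference of -0.40 with ADAR1i-124, and with 5-Aza-CdR Casp6 was higher (15.5 and 40.4 CPM) and Parp1 (111 and 39.8 CPM) and Bcl2 (29.0 and 14.0 CPM) lower, in the total RNA library with leukocyte markers at 4.28 CPM, whose part was not tested. In J2-precipitated RNA with 5-Aza-CdR none of the 14 was past the line, and Parp1 was at 50.2 CPM with DMSO and 51.9 with 5-Aza-CdR. Apaf1, the apoptosome scaffold, had 146 and 81.6 CPM in total RNA with DMSO and ADAR1i-124, but 81.8 and 91.9 CPM in J2-precipitated RNA. The ESCRT-III machinery repairs membrane damaged by MLKL. Of 14 of its genes in total RNA, Chmp4c was higher with ADAR1i-124 (1.06 and 4.31 CPM) and Chmp5 lower (85.6 and 31.8 CPM). With 5-Aza-CdR Chmp4c was higher (5.81 CPM) and none was lower. In J2-precipitated RNA Chmp4c was instead lower with ADAR1i-124, at 2.13 CPM with DMSO and 0.347 with ADAR1i-124, and none of the 14 was past the line with 5-Aza-CdR. In total RNA Chmp4b, at 120 and 85.8 CPM with ADAR1i-124, and Chmp1b and Vps4a with 5-Aza-CdR, at 39.2 and 58.8 and at 44.6 and 32.4 CPM, stayed within 2-fold.

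The pyroptosis genes, which form the inflammasome and gasdermin pores, and the interferon factors had the largest shares of genes past the line among the 5 lists with ADAR1i-124 in total RNA. Of 7 tested pyroptosis genes, 2 were higher and 4 lower with ADAR1i-124, and 6 were higher and none lower with 5-Aza-CdR. Over all genes, 7.71% were higher and 8.70% lower with ADAR1i-124, and 17.0% and 8.96% with 5-Aza-CdR. The total RNA library of 5-Aza-CdR cells is the one with leukocyte markers at 4.28 CPM against 0.235 with DMSO, and their part in these values was not tested. In J2-precipitated RNA none of the 7 was higher and 4 were lower with ADAR1i-124, against 7.37% and 10.8% of all genes. With 5-Aza-CdR in J2, 3 were higher, against 8.61%, and none lower. In total RNA the inflammasome sensor Nlrp3 was higher with both compounds, at 0.588 CPM with DMSO, 5.45 with ADAR1i-124 and 10.7 with 5-Aza-CdR, while in J2-precipitated RNA it was at 1.15, 1.18 and 10.9 CPM. The cytokine Il18 (6.17 and 0.738 CPM) and the pore protein Gsdme (20.4 and 3.63 CPM) were lower with ADAR1i-124 in total RNA. In J2-precipitated RNA Il18 was lower too (7.30 and 1.25 CPM), while Gsdme was at 7.39 CPM with DMSO and 7.36 with ADAR1i-124. The DNA sensor Aim2 was higher with ADAR1i-124 in total RNA (2.53 and 6.24 CPM) and lower in J2 (10.9 and 1.53 CPM). With 5-Aza-CdR, Aim2 (56.6 CPM) and the pore protein Gsdmd (19.4 and 73.9 CPM) were higher in total RNA. In J2-precipitated RNA Gsdmd was at 34.9 CPM with DMSO and 38.5 with 5-Aza-CdR, and in Z22-precipitated RNA at 33.7 and 20.9.

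Of 8 tested interferon factors, 5 were at least 2-fold lower with ADAR1i-124 and none higher, with a median log2 difference of -2.43, and 2 were higher with 5-Aza-CdR, with a median of 0.55, in the total RNA library with leukocyte markers at 4.28 CPM, whose part was not tested. In J2-precipitated RNA with 5-Aza-CdR, 1 of 8 was higher and none lower. In total RNA the interferon regulatory factor Irf7 (83.6 and 0.851 CPM) and the signal transducer Stat2 (3310 and 211 counts) were far below DMSO with ADAR1i-124. With 5-Aza-CdR in total RNA, Irf7 had 225 CPM and the interferon receptor chains Ifnar1 151 against 73.5 CPM and Ifnar2 31.7 against 16.5 CPM. There Irf7 and Zbp1 were thus both lower with the 1 compound and higher with the other. The lists were read with earlier results of these data known, and the backgrounds are the shares of all genes given above.

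**Figure D4:**
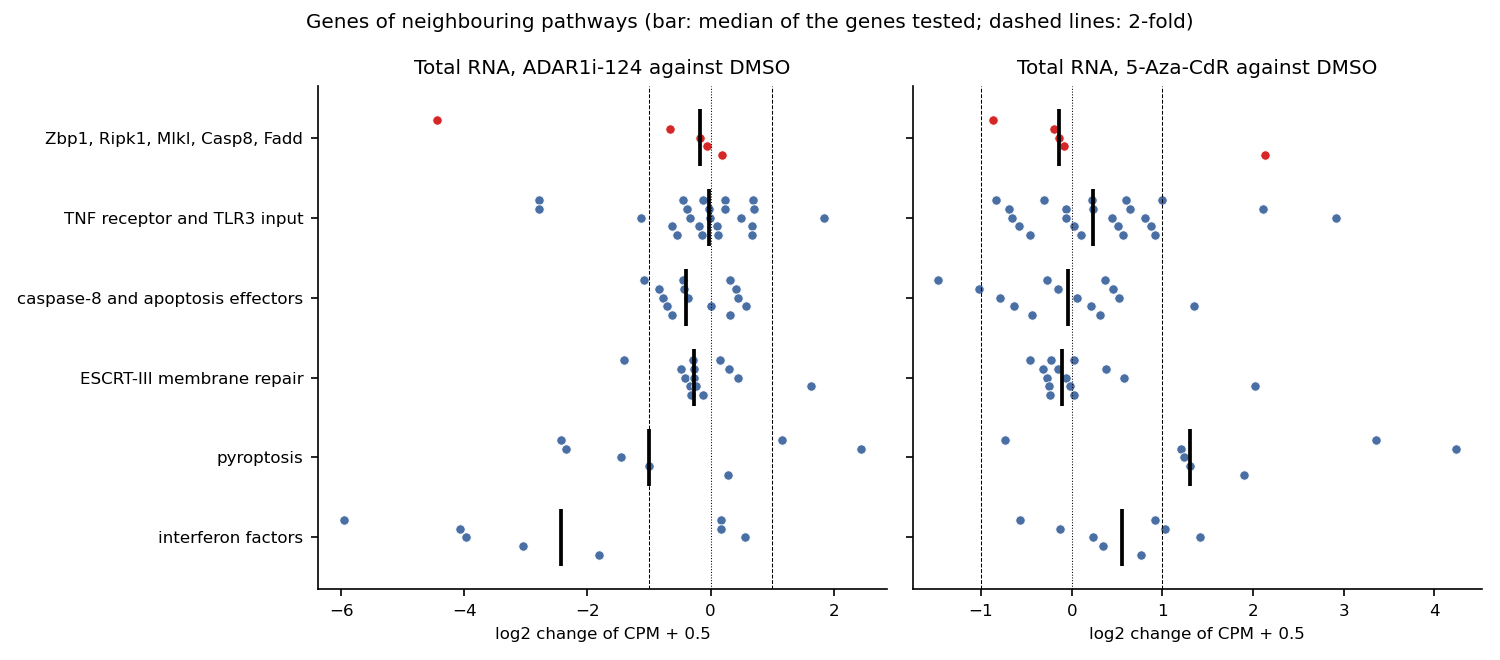
Log2 difference from DMSO in total RNA, after adding 0.5 CPM, of the genes that averaged 1 CPM or more in 6 lists, with ADAR1i-124 on the left and 5-Aza-CdR on the right, each point being 1 gene and the black bar the median of those shown. The interferon factors have a median of -2.43 on the left and 0.55 on the right, and Zbp1 is the outermost red point in both panels.

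Over the 12 libraries, the genes most like each member were ranked by Pearson's r of log2 CPM among 10385 genes that averaged 5 CPM or more, as a description without a test, since libraries of 1 treatment share cells, depth and composition. Zbp1 was most like Ifi213 (0.981), Ifi208 (0.978), Psmb8 (0.978), H2-T23 (0.976) and Gm26797 (0.970). Ripk3 was most like Gm49701 (0.993), Gm42860 (0.989), Tex19.1 (0.988), Serpinb1c (0.987) and Slc47a1 (0.987), each of which was at 0 in at least 1 library and reached 18.9 to 40.5 CPM in another. Mlkl had no close match, Riox2 (0.889) and Suv39h2 (0.847) being the nearest before Rbm34 (0.840), Rtf2 (0.839) and Mtg2 (0.833). Casp8 was most like Kif1bp (0.926), Hdac1 (0.915), Tspan31 (0.913) and Fam102b (0.911), Ripk1 was most like Ccnj (0.973), Hipk3 (0.960), Cd44 (0.953), Rgs19 (0.953) and Pcgf3 (0.952), and Fadd was most like Actg1 (0.976), Pgp (0.976), Cstf2 (0.972) and Fmr1 (0.971).

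Among the members themselves, r was 0.79 between Ripk3 and its substrate Mlkl, 0.78 between Ripk1 and Fadd, and 0.74 between Zbp1 and Ripk3. As Ripk3 had 0 to 3 counts without 5-Aza-CdR, its r values largely set libraries with 5-Aza-CdR against libraries without it. In total RNA with DMSO and 5-Aza-CdR, Ripk3 had 2 and 49 counts while Mlkl had 170 and 149 CPM. Zbp1 and Fadd had r of -0.62, and Zbp1 and Ripk1 -0.21. Casp8 and Fadd, which act in the same complex, had r of 0.51.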

How the data were processed

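Total RNA and RNA precipitated with J2, Z22 or IgG from Yumm1.7 cells were sequenced in 13 libraries, of which 12 were used. Paired reads were mapped by the authors to GRCm38 (mm10) using STAR within snakePipes, and the authors deposited raw counts per gene, not normalized. The counting tool and its strand setting are not given in the sources used here. Identifiers without version were matched to GENCODE mouse release 21, which named 54409 of 54532 genes. Where a symbol had several rows, the row with the highest sum was used.

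Counts were divided by the sum of the table in each library to give CPM. Log2 differences used CPM + 0.5, which understates differences of low genes, while fold ratios and their 95% Wilson intervals, taken from the share of a gene's counts in the first of 2 libraries, used counts without it. Genes that averaged 1 CPM or more in the libraries of a comparison counted as tested, and a difference of 2-fold as the line. No test was run, since each condition had 1 library. The calculation was checked on simulated counts. Named genes were the 6 members, Adar, the 3 genes of each list with the largest absolute difference in each comparison of total RNA, and the 5 genes most like each member, of which some are not reported here. Other genes named were marker genes, genes that overlap a member and Gm42418, which was named after its values were seen. The members, the lists and the 2 patterns across materials were chosen with earlier results of these data known.

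Alternatives were edgeR's TMM factors, DESeq2's size factors, totals without the 20 genes of highest share or over protein-coding genes, pseudocounts of 0.1 and 2 CPM, no minimum or a minimum of 5 CPM, a 4-fold line, and matched total RNA in place of IgG. Python 3.11.15 with numpy 2.4.6, pandas 2.3.3, scipy 1.17.1 and matplotlib 3.10.9, and R 4.3.3 with edgeR 4.0.16 and DESeq2 1.42.0, were used.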

Additional observations from a re-analysis of the deposited data

Results flagged for a closer look

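The sign of the difference from DMSO was not the same in every material for some members, with counting intervals that left out 0 on both sides. With ADAR1i-124, the log2 difference of Mlkl was 0.47 in J2-precipitated RNA, -0.17 in total RNA and 0.12 in Z22-precipitated RNA, and that of Casp8 was 0.50, -0.66 and 0.40 in the same order. With 5-Aza-CdR, Mlkl was at 1.03, -0.19 and 0.51 and Casp8 at 0.56, -0.14 and 0.70. Fadd was at 0.65 in Z22-precipitated RNA and -0.87 in total RNA with 5-Aza-CdR. The difference between the materials was not tested, because each rests on 1 library per treatment. The Z22 values lay below the median of all genes, which was 0.81 with ADAR1i-124 and 1.06 with 5-Aza-CdR, and with size factors they were negative, at -0.74 and -0.56 for Mlkl, -0.45 and -0.37 for Casp8 and -0.37 for Fadd. The J2 values of Mlkl and Casp8 kept their sign under every scaling tried.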

How the results depend on the processing

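The 5 scalings of the libraries left both patterns of the members in place, since Zbp1 was at least 2-fold lower with ADAR1i-124 in all 3 materials and Ripk3 had every 5-Aza-CdR library above every other under each of them. No called value reversed. In total RNA the log2 difference of Zbp1 with ADAR1i-124, -4.44 with library totals, was -4.31 with TMM factors, -4.26 with size factors and -3.34 with a pseudocount of 2 CPM, and in J2-precipitated RNA it was -3.71 with that pseudocount. In Z22-precipitated RNA Zbp1 with ADAR1i-124 was at -2.55 with TMM factors, -2.73 with size factors, -2.39 without the 20 genes of highest share and -2.30 over protein-coding totals. With 5-Aza-CdR it was at 0.01, -0.09 and 0.41 under the same settings and 0.51 over protein-coding totals, and with the combination at 1.45, 1.31, 1.76 and 1.86. The median of all 6 members in Z22, Ripk3 included, was -0.22, -0.33, 0.18 and 0.28 with 5-Aza-CdR under these 4 settings, and -0.04 and -0.17 with the combination under TMM and size factors. With ADAR1i-124 this median, 0.26 on library totals, was -0.37 and -0.49 under TMM and size factors, and the median ratio to IgG in Z22 of DMSO cells, -0.48, was 0.15 and 0.30. For Ripk3 a pseudocount of 2 CPM gave 0.69 in total RNA with 5-Aza-CdR and 1.56 in J2.

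Counts of all genes past the line depended on the line and the minimum. A 4-fold line left 538 and 1114 genes in total RNA, 477, 559 and 462 in J2 and 1807, 2864 and 2027 in Z22, in the order of treatments used above. A minimum of 5 CPM left 1413 with ADAR1i-124 in total RNA and 1576, 1090 and 878 in J2, and a pseudocount of 2 CPM left 1306 for 5-Aza-CdR and 1091 for the combination in J2. The 2 patterns across materials were added after seeing the data. The pattern of Ripk3 held for 1384 genes with no minimum and 387 at 5 CPM, and that of Zbp1 for 209 with size factors. Leaving out a replicate was not possible with 1 library per condition. No paired analysis was possible because each comparison with DMSO set 1 library against 1, so that the groups compared share fewer than 2 replicate numbers. Depth limits Ripk3 most, where a difference of a few counts in a DMSO library would change each ratio.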
